A study of Homo sapiens with 30 samples.

Results

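The genes described here are 7 genes of the liver X receptor (LXR) axis and of cholesterol efflux, followed in HT29 cells exposed to herbal extracts for 24 h. HT29 is an established line from a human colorectal adenocarcinoma. They were taken by symbol from a table of 60675 gene rows: the receptors NR1H3 and NR1H2, the exporters ABCA1 and ABCG1, the ubiquitin ligase MYLIP, the acyltransferase LPCAT3 and the desaturase SCD. Each of the 7 matched 1 Ensembl identifier and all 7 passed the filter on low counts. RNA was sequenced from cells given a 70% ethanol extract of Soshiho-tang or Yijin-tang (3 libraries at each of 20, 100 and 500 µg/mL), of Okbyeongpung-san (2 libraries a dose) or of Soyo-san (1 library a dose), and from cells given vehicle, DMSO at 0.1% (3 libraries). The 30 libraries, in 13 groups, share the cell line. Titles put all Soyo-san libraries and Okbyeongpung-san replicate 3 in a batch D and the rest, vehicle included, in a batch E. What a batch is they do not say. For Soyo-san, extract and titled batch therefore cannot be told apart in any comparison with vehicle. Nothing in the labels makes the replicates separate cultures, so p-values measure the spread between these libraries, which may be technical. The doses are those of the labels. The design text gives 2% DMSO for vehicle and lower doses for extracts with an IC20 under 500 µg/mL, so solvent and dose are uncertain.

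Library totals were 18.5 M to 36.2 M counts, with a median of 24.2 M. Of 10 colon epithelial genes 7 were abundant in every library, among them EPCAM at 447 to 570 CPM (counts scaled to library size) and VIL1, the lowest of the 7, at 106 to 168 CPM. CDX1 was at 0.371 to 1.22 CPM, CDX2 at 2.63 to 4.86 CPM and CEACAM5 at 5.25 to 12 CPM. The macrophage genes CD163, MARCO and CSF1R and the hepatocyte genes ALB, APOB and CYP3A4 stayed at or under 0.199 CPM, while the macrophage genes CD68 and CD14 were at 4.18 to 8.57 CPM and 1.52 to 3.82 CPM. The vehicle libraries are named as a separate set, so that an effect of extract and one of the set cannot be told apart, and replicate pairs differed less in extract groups than in vehicle (chi-square per degree of freedom 2.41 to 10.4 in extract pairs and 11.2 to 20.6 in vehicle pairs). For this reason the highest dose is set both against vehicle and against the lowest dose of its own formula. Library names also place Okbyeongpung-san and Soyo-san in a set and Soshiho-tang and Yijin-tang in another. Where levels are compared across these sets, extract and set cannot be told apart. The tests estimate the spread over all groups of a fit, so p-values against vehicle may be too small. A fit of only the groups compared takes the spread from those groups alone and leaves fewer libraries. At 20 µg/mL of Soshiho-tang against vehicle it called 362 genes instead of 2677. For 500 against 20 µg/mL of Yijin-tang it called 869 instead of 305. The cause of these shifts was not tested.

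LXRs are nuclear receptors that bind oxysterols, oxidised forms of cholesterol, and pair with retinoid X receptors on DNA. Their target genes move cholesterol out of the cell, lower its uptake and adjust fatty acids and membrane phospholipids. A second system, the SREBP2 transcription factor, raises cholesterol synthesis and uptake when sterol in the endoplasmic reticulum is low, and in the intestine both systems act in the cells that absorb cholesterol.

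LXR-RXR pairs bind direct repeats of a hexamer spaced by 4 bases (AGGTCA, any 4 bases, AGGTCA in the ideal form). The sequence before the start of the members is therefore shown first, for the exporter ABCA1 and for MYLIP and LPCAT3. By Pearson correlation of group means, MYLIP and LPCAT3 ran most closely with the other exporter, ABCG1. Promoter sequence from RefSeq (build GRCh38.p14) was matched for 6 of the 7 members, all but ABCG1, in 9 windows of 250 bases before a start site. Both strands were searched. With up to 2 mismatches the repeat was found in the window of ABCA1 alone among these 6 members, 69 bases before the RefSeq start and on the opposite strand. The stretch below (chr9:104928202-104928231, minus strand, repeat in capitals) lies inside the gene as GENCODE release 29 draws it. Such a match was present in 2.03% of 35116 promoter windows of 250 bases, and the exact repeat in 0.0142%.
ABCA1, 30 bases with the repeat: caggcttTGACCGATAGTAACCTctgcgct
The window of ABCA1 also holds an E-box (CACGTG), as did 6.34% of all windows of 250 bases in the table. It is shown in capitals in the bases before both annotated starts (chr9:104928238-104928405, minus strand). The stretches of MYLIP (chr6:16128836-16129085, plus strand) and LPCAT3 (chr12:7018511-7018726, minus strand) are printed for comparison and have no capitals.
ABCA1, before both starts: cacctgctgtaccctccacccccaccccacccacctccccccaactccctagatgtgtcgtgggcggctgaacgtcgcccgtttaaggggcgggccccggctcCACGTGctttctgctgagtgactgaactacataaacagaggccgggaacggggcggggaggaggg
MYLIP, before both starts: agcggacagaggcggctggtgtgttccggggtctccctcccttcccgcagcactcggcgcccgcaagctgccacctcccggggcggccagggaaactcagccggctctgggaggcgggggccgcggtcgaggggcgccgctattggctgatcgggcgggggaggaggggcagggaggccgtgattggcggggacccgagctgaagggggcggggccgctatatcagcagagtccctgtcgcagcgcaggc
LPCAT3, before both starts: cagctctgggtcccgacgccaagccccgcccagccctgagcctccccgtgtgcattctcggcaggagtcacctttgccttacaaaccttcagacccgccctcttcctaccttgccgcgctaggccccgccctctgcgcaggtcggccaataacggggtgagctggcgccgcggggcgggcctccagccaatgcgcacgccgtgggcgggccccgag
The half-site AGGTCA, part of the longer repeat, was found in 1 window of NR1H3, 140 bases before its start, and in 12.1% of all promoters. The sterol element TCACNCCAC was found in no member window and in 0.883% of all promoters.

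On GRCh38 (GENCODE release 29), ABCA1 (ENSG00000165029) lies on chromosome 9 from 104781002 to 104928237, ABCG1 (ENSG00000160179) on chromosome 21 from 42199689 to 42297244 and MYLIP (ENSG00000007944) on chromosome 6 from 16129125 to 16148248. SCD (ENSG00000099194) lies on chromosome 10 from 100347124 to 100364834 and LPCAT3 (ENSG00000111684) on chromosome 12 from 6976186 to 7018510. NR1H2 (ENSG00000131408) lies on chromosome 19 from 50329653 to 50382982 and NR1H3 (ENSG00000025434) on chromosome 11 from 47248300 to 47269032. LPCAT3 overlaps EMG1 and C1S on the opposite strand, NR1H2 overlaps NAPSB and NAPSA, NR1H3 overlaps ACP2 over 607 bases, and ABCA1 overlaps the antisense gene AL359182.1 over 685 bases. The library kit kept strand, but the strand setting of the counting is not given in the sources used here, so the values of these 4 genes are less certain.

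Levels per kilobase of exon differed widely between the members. Over all libraries SCD averaged 259 CPM per kb, LPCAT3 16.9, NR1H3 8.89, NR1H2 6.99 and MYLIP 4.89 CPM per kb. The exporters were the lowest, ABCA1 at 0.547 CPM per kb (80 to 261 counts a library) and ABCG1 at 0.531 CPM per kb (42 to 238 counts a library), so their values carry the most counting error. NR1H3 (LXRα) stood above NR1H2 (LXRβ) in this length-scaled level in HT29 cells, at 8.95 against 7.68 CPM per kb in vehicle.

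ABCG1, which passes cholesterol to high-density lipoprotein, had its highest level at 500 µg/mL of Yijin-tang, at 500 µg/mL of Okbyeongpung-san the next and at 500 µg/mL of Soshiho-tang the third. In vehicle it was at 2.27, 1.67 and 1.63 CPM. With Yijin-tang it was at 2.34, 2.64 and 2.56 CPM at 20 µg/mL, 2.84, 3.23 and 2.51 CPM at 100 µg/mL, and 8.22, 7.57 and 6.86 CPM at 500 µg/mL. Every Yijin-tang library at 500 µg/mL was above every other library of the series, and the step lay between 100 and 500 µg/mL.

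With Okbyeongpung-san, ABCG1 was at 2.96 and 2.33 CPM at 20 µg/mL, 2.66 and 3.06 CPM at 100 µg/mL, and 4.45 and 4.88 CPM at 500 µg/mL. With Soshiho-tang it was at 2.62, 2.37 and 2.98 CPM at 20 µg/mL, 2.44, 2.41 and 2.59 CPM at 100 µg/mL, and 3.04, 3.43 and 3.68 CPM at 500 µg/mL. The 3 formulas did not overlap at 500 µg/mL, and the vehicle libraries lay below all libraries of these 3 formulas. With 1 library per dose, Soyo-san gave 2.43, 1.93 and 2.84 CPM at 20, 100 and 500 µg/mL, of which the value at 100 µg/mL lay inside the vehicle range.

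**Figure D1:**
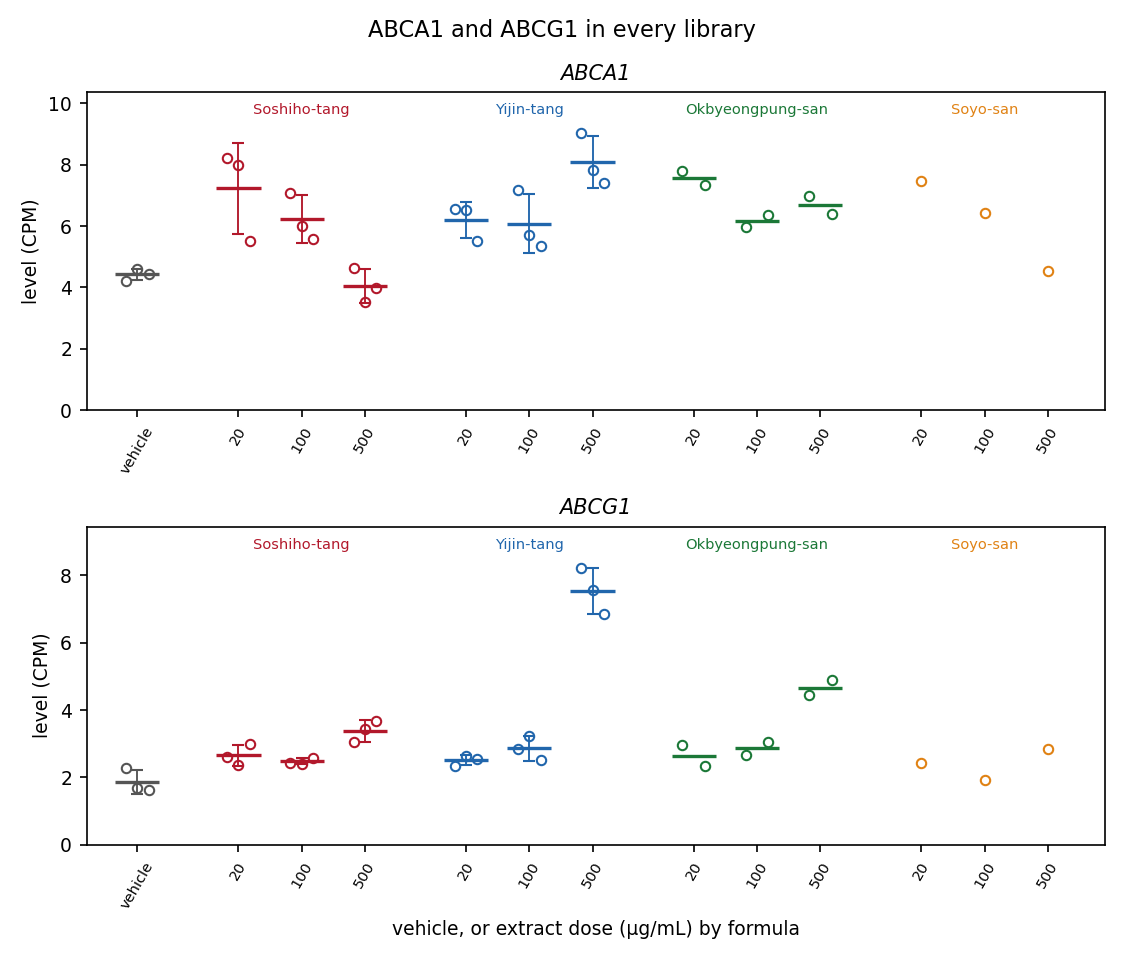
Levels of ABCA1 (top) and ABCG1 (bottom) in CPM in each of the 30 libraries, with vehicle at the left and each formula's doses from 20 to 500 µg/mL. Circles are libraries, thick lines group means and bars the SD where a group has 3 libraries. ABCG1 reaches 8.22 CPM with Yijin-tang at 500 µg/mL, and ABCA1 drops back to 3.54 to 4.65 CPM with Soshiho-tang at 500 µg/mL.

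Against vehicle, ABCG1 rose by a log2 fold change of 2.01 ± 0.13 (SE) at 500 µg/mL of Yijin-tang (adjusted p = 1.4e-10), 1.32 ± 0.18 at 500 µg/mL of Okbyeongpung-san (adjusted p = 0.0021) and 0.84 ± 0.15 at 500 µg/mL of Soshiho-tang (adjusted p = 4.5e-05). These and all single-gene p-values below are from edgeR's quasi-likelihood test with Benjamini-Hochberg adjustment over all genes, called at an adjusted p below 0.05. For ABCG1 at 500 µg/mL of Okbyeongpung-san a second test, DESeq2, left the adjusted p undefined, so that call has no DESeq2 check. Its log2 fold change was 1.23 to 1.51 in the other alternative fits, some of which leave a single Okbyeongpung-san library at that dose. Relative to 20 µg/mL of each formula the change was 1.58 ± 0.13 with Yijin-tang (adjusted p = 1.3e-08), while 0.83 ± 0.2 with Okbyeongpung-san (adjusted p = 0.12) and 0.34 ± 0.14 with Soshiho-tang (adjusted p = 0.083) did not pass. Soshiho-tang at 500 µg/mL was below Yijin-tang by 1.16 on the log2 scale (-1.16 ± 0.13, adjusted p = 1.1e-07). The change across the dose range differed between Yijin-tang and Soshiho-tang by 1.24 ± 0.2 (interaction term, adjusted p = 0.00013). That both exporters have differing dose patterns was known from these data before the test. Between Okbyeongpung-san and Soshiho-tang this difference was 0.48 ± 0.22 (adjusted p = 0.37), and between Okbyeongpung-san and Yijin-tang it was -0.76 ± 0.22 (adjusted p = 0.76).

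At the lower doses ABCG1 passed the test against vehicle at 20 µg/mL of Soshiho-tang (0.50 ± 0.15, adjusted p = 0.023) and at 100 µg/mL of Yijin-tang (0.60 ± 0.15, adjusted p = 0.006). The call for Soshiho-tang was lost without vehicle replicate 2 (0.43), vehicle replicate 3 (0.41) or Soshiho-tang replicate 3 at 20 µg/mL (0.40), and both calls were lost in a fit of only the groups compared (adjusted p = 0.15 and 0.085). The values that did not pass, 0.40 ± 0.15 at 100 µg/mL of Soshiho-tang and 0.42 ± 0.15 at 20 µg/mL of Yijin-tang, passed without vehicle replicate 1 (0.59 and 0.61), the vehicle library with the highest ABCG1. The values for Okbyeongpung-san at 100 and 20 µg/mL, 0.61 ± 0.2 and 0.49 ± 0.2, did not pass (adjusted p = 0.2 for both).

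ABCA1, which loads cholesterol and phospholipid onto apolipoprotein A-I, followed a different order. In vehicle it was at 4.22, 4.60 and 4.45 CPM. With Soshiho-tang it was at 8.21, 7.98 and 5.53 CPM at 20 µg/mL, 7.09, 6.00 and 5.59 CPM at 100 µg/mL, and 4.65, 3.54 and 3.98 CPM at 500 µg/mL. The libraries at 20 and 100 µg/mL all lay above vehicle and those at 500 µg/mL overlapped vehicle.

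With Yijin-tang, ABCA1 was at 6.55, 6.51 and 5.51 CPM at 20 µg/mL, 7.17, 5.71 and 5.36 CPM at 100 µg/mL, and 9.02, 7.83 and 7.40 CPM at 500 µg/mL. With Okbyeongpung-san it was at 7.79 and 7.35 CPM at 20 µg/mL, 5.97 and 6.35 CPM at 100 µg/mL, and 6.97 and 6.38 CPM at 500 µg/mL. All libraries of both formulas lay above vehicle. The Yijin-tang libraries at 500 µg/mL lay above those at the lower doses, and the Okbyeongpung-san libraries at 20 µg/mL lay above those at the higher doses. Soyo-san gave 7.46, 6.43 and 4.53 CPM at 20, 100 and 500 µg/mL, and only the value at 500 µg/mL lay inside the vehicle range.

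Against vehicle, ABCA1 rose by 0.88 ± 0.14 at 500 µg/mL of Yijin-tang (adjusted p = 4.7e-05), 0.62 ± 0.11 at 500 µg/mL of Okbyeongpung-san (adjusted p = 0.012), and 0.71 ± 0.14 at 20 µg/mL of Soshiho-tang (adjusted p = 0.00078). It did not pass at 500 µg/mL of Soshiho-tang, where the change was -0.13 ± 0.15 with a 95% interval of -0.44 to 0.18 (adjusted p = 0.53). Across the dose range ABCA1 fell by 0.84 on the log2 scale with Soshiho-tang (-0.84 ± 0.15 for 500 against 20 µg/mL, adjusted p = 7.1e-05). The same contrast was 0.39 ± 0.13 with Yijin-tang (adjusted p = 0.17) and -0.16 ± 0.12 with Okbyeongpung-san (adjusted p = 0.89), and neither passed. The difference of these changes between Yijin-tang and Soshiho-tang was 1.23 ± 0.2 (adjusted p = 0.00017), and at 500 µg/mL Soshiho-tang was below Yijin-tang by 1.01 (-1.01 ± 0.14, adjusted p = 9.5e-06). Between Okbyeongpung-san and Soshiho-tang the difference was 0.67 ± 0.21 (adjusted p = 0.11), and it passed without Soshiho-tang replicate 3 at 20 µg/mL (0.84, adjusted p = 0.014).

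The remaining ABCA1 calls against vehicle were smaller or less stable. They were 0.49 ± 0.14 at 100 µg/mL of Soshiho-tang (adjusted p = 0.015), 0.47 ± 0.14 and 0.50 ± 0.14 at 100 and 20 µg/mL of Yijin-tang (adjusted p = 0.021 and 0.015), and 0.78 ± 0.11 at 20 µg/mL of Okbyeongpung-san (adjusted p = 0.019). The 100 µg/mL value of Okbyeongpung-san, 0.49 ± 0.12, did not pass (adjusted p = 0.12). The call for Soshiho-tang at 100 µg/mL was lost without its replicate 1 (0.40), that for Yijin-tang at 100 µg/mL without its replicate 1 (0.33), vehicle replicate 1 (0.43) or vehicle replicate 3 (0.47) or in a fit of only the groups compared (adjusted p = 0.067), and that for Yijin-tang at 20 µg/mL without its replicate 1 or its replicate 2 (0.46 each). With Okbyeongpung-san the call at 500 µg/mL was lost without replicate 2 (0.55) or replicate 3 (0.68), and that at 20 µg/mL without replicate 2 (0.74), replicate 3 (0.83) or vehicle replicate 3 (0.79), or with the titled batch as a term (0.80, adjusted p = 0.062).

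**Figure D2:**
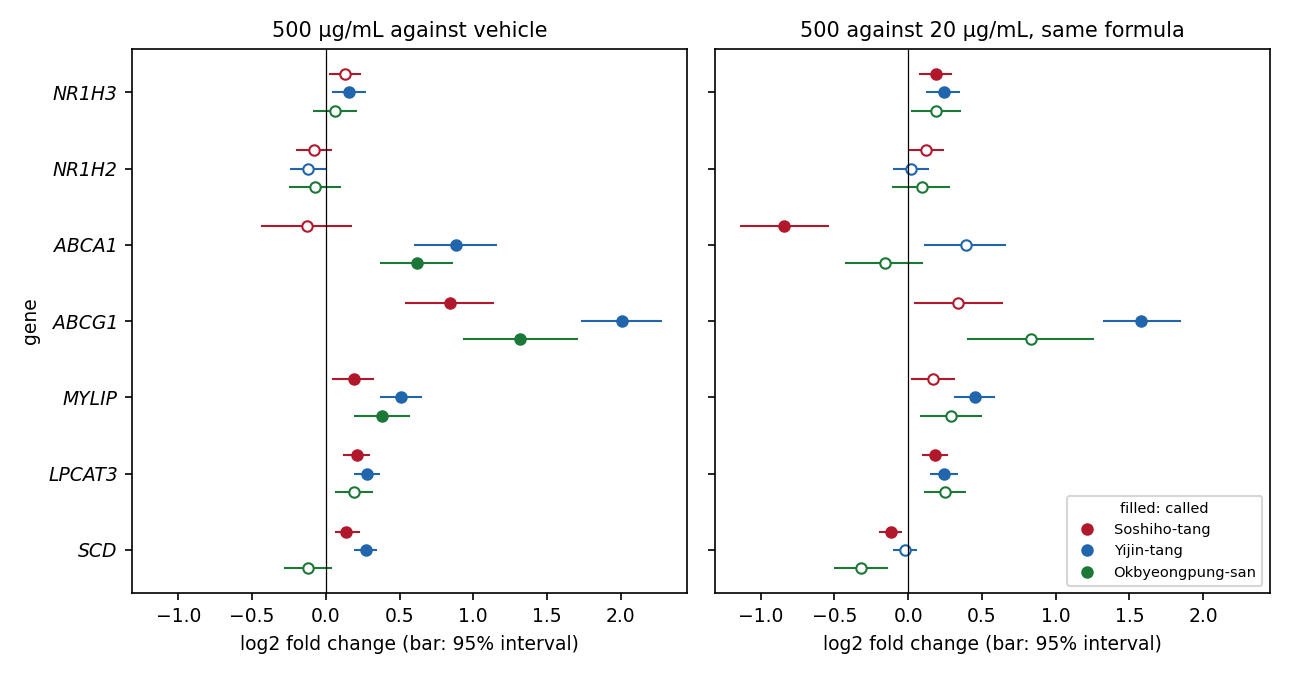
Log2 fold changes of the 7 genes at 500 µg/mL against vehicle (left) and against each formula's own 20 µg/mL (right), on a shared axis. Points are estimates for Soshiho-tang, Yijin-tang and Okbyeongpung-san, bars are 95% intervals and filled points passed the test. ABCG1 lies to the right in every contrast, up to 2.01, while ABCA1 ranges from 0.88 to -0.84.

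NR1H3, the LXRα gene, was at 46.1, 41.4 and 47.3 CPM at 500 µg/mL of Yijin-tang and at 40.2, 38.7 and 42.7 CPM in vehicle. The groups overlapped, and the rise of 0.16 ± 0.054 passed (adjusted p = 0.04) but not without vehicle replicate 1 (0.15), vehicle replicate 2 (0.13), Yijin-tang replicate 1 (0.14) or Yijin-tang replicate 3 (0.12). It was also lost with no filter on low counts (adjusted p = 0.065) and in a fit of only the groups compared (adjusted p = 0.16). With Soshiho-tang at 500 µg/mL NR1H3 averaged 44.3 CPM, near the 44.9 CPM of Yijin-tang, and its change against vehicle did not pass in the reported fit. That change passed with DESeq2 (0.15, adjusted p = 0.048), RLE factors (0.14, adjusted p = 0.038) and a replicate block (0.13, adjusted p = 0.046). Without vehicle replicate 3 it passed too (0.17, adjusted p = 0.027). Against 20 µg/mL, NR1H3 rose by 0.19 ± 0.056 with Soshiho-tang (adjusted p = 0.013) and 0.24 ± 0.055 with Yijin-tang (adjusted p = 0.018), and the value of 0.19 ± 0.078 with Okbyeongpung-san did not pass (adjusted p = 0.55). The call for Soshiho-tang was lost without replicate 2 at 500 µg/mL (0.15). That for Yijin-tang was lost without replicate 1 (0.22) or replicate 3 (0.20) at 500 µg/mL and without replicate 1 (0.23) or replicate 2 (0.22) at 20 µg/mL. In all 4 formulas the mean of NR1H3 was lowest at 20 µg/mL and highest at 500 µg/mL.

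NR1H2, the LXRβ gene, averaged between 24.5 and 27.2 CPM in the 12 extract groups, each below vehicle, where it was at 28.4, 28.1 and 29.9 CPM. It passed the test, lower, at 20 and 100 µg/mL of Soshiho-tang (-0.20 ± 0.058 and -0.17 ± 0.058, adjusted p = 0.017 and 0.041) and at 100 µg/mL of Yijin-tang (-0.17 ± 0.058, adjusted p = 0.04). No contrast between doses of a formula passed, the largest being 0.12 ± 0.06 for 500 against 20 µg/mL of Soshiho-tang (adjusted p = 0.14). The 3 calls were lost in a fit of only the groups compared (adjusted p = 0.14 to 0.17) and without vehicle replicate 3 (-0.14 to -0.18), and since all 3 are against vehicle, the library set cannot be told apart from the extracts here. The call at 20 µg/mL was also lost without Soshiho-tang replicate 3 (-0.15), that at 100 µg/mL of Soshiho-tang without any 1 of its libraries (-0.15 to -0.18), and that for Yijin-tang without its replicate 1 (-0.17) or replicate 2 (-0.14). Both calls at 100 µg/mL, for Soshiho-tang and for Yijin-tang, were lost with DESeq2 (adjusted p = 0.085 and 0.1) and with no filter on low counts (adjusted p = 0.053 and 0.051), and that for Soshiho-tang with RLE factors (adjusted p = 0.052).

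MYLIP, also called IDOL, a ubiquitin ligase that lowers cholesterol uptake, rose at 500 µg/mL in the order seen for ABCG1. The 500 µg/mL libraries were at 18.2, 17.9 and 21 CPM with Yijin-tang, 18.0 and 16.5 CPM with Okbyeongpung-san and 15.7, 15.2 and 15.2 CPM with Soshiho-tang, against 14.1, 13.8 and 12.5 CPM in vehicle. All of these libraries lay above vehicle, while the groups of these 3 formulas at 20 and 100 µg/mL, at 13 to 15 CPM, overlapped it.

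The MYLIP changes against vehicle at 500 µg/mL were 0.51 ± 0.068 with Yijin-tang (adjusted p = 7.9e-06), 0.38 ± 0.089 with Okbyeongpung-san (adjusted p = 0.033) and 0.19 ± 0.07 with Soshiho-tang (adjusted p = 0.034). The call for Okbyeongpung-san was lost without its replicate 2 (0.31), its replicate 3 (0.44) or vehicle replicate 3 (0.33), with the titled batch as a term (0.40, adjusted p = 0.09), with DESeq2 (adjusted p = 0.079) or in a fit of only the groups compared (adjusted p = 0.082). That for Soshiho-tang was lost without vehicle replicate 3 (0.14) or any 1 of its own libraries (0.18 to 0.20), with DESeq2 (adjusted p = 0.057), with no filter on low counts (adjusted p = 0.092) and in a fit of only the groups compared (adjusted p = 0.084). Against 20 µg/mL, MYLIP rose by 0.45 ± 0.069 with Yijin-tang (adjusted p = 0.00034), and 0.29 ± 0.099 with Okbyeongpung-san (adjusted p = 0.39) and 0.17 ± 0.072 with Soshiho-tang (adjusted p = 0.079) did not pass. Soshiho-tang was below Yijin-tang at 500 µg/mL (-0.32 ± 0.069, adjusted p = 0.0018). Soyo-san gave 15, 13.7 and 14.5 CPM at 20, 100 and 500 µg/mL.

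LPCAT3, which builds polyunsaturated chains into membrane phospholipids, was higher at 500 µg/mL of every formula in each library. The libraries at 500 µg/mL were at 91.8, 91.6 and 90.3 CPM with Yijin-tang, 82.7, 91.0 and 87.2 CPM with Soshiho-tang, 85.9 and 84.4 CPM with Okbyeongpung-san, and 84.8 CPM with Soyo-san, against 76.8, 73.1 and 75.8 CPM in vehicle. All 9 of these libraries lay above all vehicle libraries and above their own formula's libraries at 20 µg/mL.

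LPCAT3 rose against vehicle by 0.28 ± 0.045 with Yijin-tang (adjusted p = 5.9e-05) and 0.21 ± 0.045 with Soshiho-tang (adjusted p = 0.00046), and 0.19 ± 0.06 with Okbyeongpung-san did not pass (adjusted p = 0.084). Without vehicle replicate 1 the value for Okbyeongpung-san passed (0.21, adjusted p = 0.031). Relative to 20 µg/mL it rose by 0.24 ± 0.045 with Yijin-tang (adjusted p = 0.002) and 0.18 ± 0.045 with Soshiho-tang (adjusted p = 0.0037), with 0.25 ± 0.067 for Okbyeongpung-san not passing (adjusted p = 0.17). At 20 and 100 µg/mL no group passed against vehicle. Soshiho-tang and Yijin-tang did not differ past the test at 500 µg/mL (-0.07 ± 0.045, 95% interval -0.16 to 0.02, adjusted p = 0.34).

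SCD, which makes monounsaturated fatty acids, was the most abundant member. At 500 µg/mL it was at 1467, 1492 and 1497 CPM with Yijin-tang, 1350, 1383 and 1376 CPM with Soshiho-tang, and 1108 and 1145 CPM with Okbyeongpung-san, against 1313, 1207 and 1197 CPM in vehicle. The libraries of Yijin-tang and Soshiho-tang lay above vehicle and those of Okbyeongpung-san below it.

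SCD rose against vehicle at all doses of Yijin-tang, by 0.29 ± 0.039, 0.29 ± 0.039 and 0.27 ± 0.039 at 20, 100 and 500 µg/mL (adjusted p = 1.9e-05, 1.4e-05 and 2.8e-05). It also rose at all doses of Soshiho-tang, by 0.26 ± 0.039, 0.19 ± 0.039 and 0.14 ± 0.039 (adjusted p = 4.8e-05, 0.0014 and 0.0043), 3 calls that were lost in a fit of only the groups compared (adjusted p = 0.051 to 0.11). Across the dose range SCD fell with Soshiho-tang (-0.12 ± 0.039 for 500 against 20 µg/mL, adjusted p = 0.028), a call lost without any 1 of the 3 libraries at 500 µg/mL (-0.10 to -0.12) without replicate 1 (-0.10) or replicate 3 (-0.12) at 20 µg/mL, or with no filter on low counts (-0.11, adjusted p = 0.056). With Okbyeongpung-san SCD was at 1403 and 1431 CPM at 20 µg/mL and 1201 and 1364 CPM at 100 µg/mL. Its change across the dose range, -0.32 ± 0.082, did not pass (adjusted p = 0.15), although the doses of 20 and 500 µg/mL did not overlap, and it passed in a fit of only the groups compared (adjusted p = 2.3e-06), with DESeq2 (adjusted p = 0.011) and with no filter on low counts (adjusted p = 0.029). The change with Yijin-tang was -0.02 ± 0.039. Soshiho-tang at 500 µg/mL was below Yijin-tang (-0.12 ± 0.039, adjusted p = 0.039), a call lost without any 1 of the 6 libraries compared (-0.11 to -0.13).

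**Figure D3:**
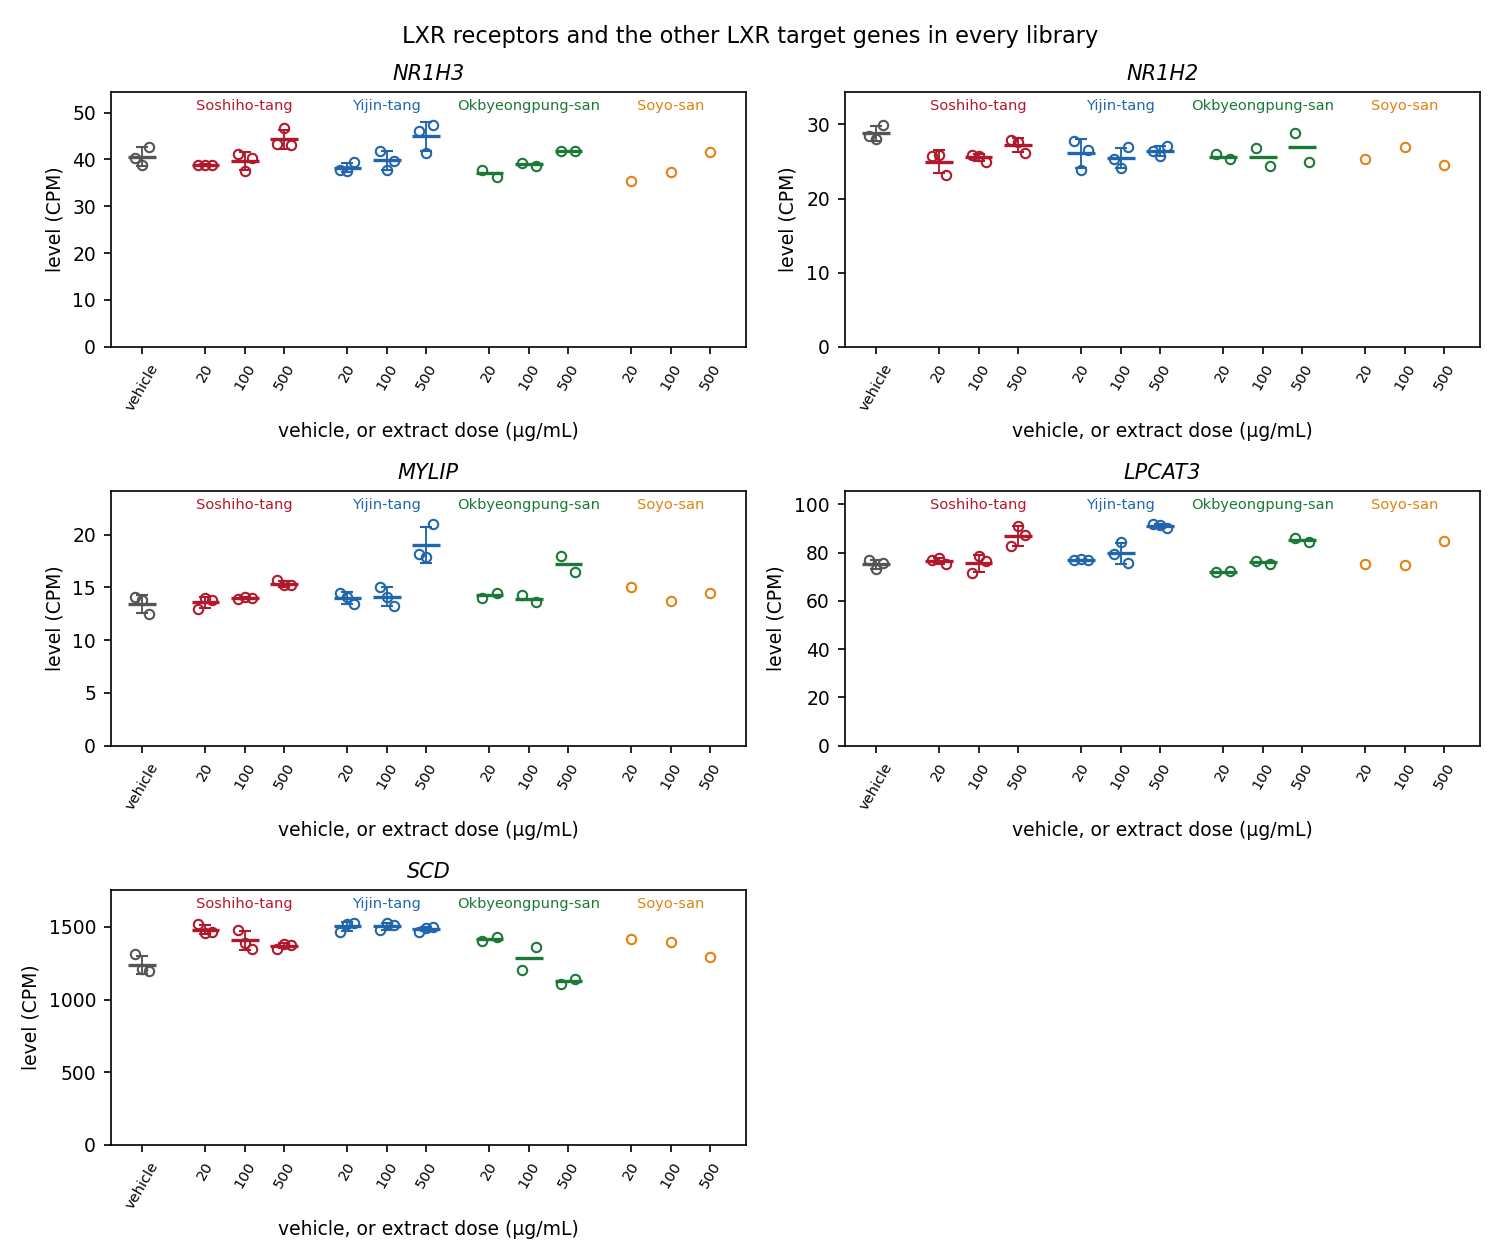
Levels of NR1H3, NR1H2, MYLIP, LPCAT3 and SCD in CPM in each library, with vehicle at the left and each formula's doses from 20 to 500 µg/mL. Circles are libraries, thick lines group means and bars the SD where a group has 3 libraries. LPCAT3 is highest at 500 µg/mL of each formula, between 82.7 and 91.8 CPM, and SCD with Okbyeongpung-san is lower at each higher dose.

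Counted together against vehicle at 500 µg/mL, 6 of the 7 members rose with Yijin-tang and none fell, where 21.4% of all genes tested were called, 11% higher and 10.3% lower. With Soshiho-tang 4 rose and none fell, where 39.2% of all genes were called, 19.3% higher and 19.9% lower. With Okbyeongpung-san 3 rose and none fell, where 4.38% were called, 2.19% higher and 2.19% lower. The median change of the members was 0.28 with Yijin-tang, 0.14 with Soshiho-tang and 0.19 with Okbyeongpung-san, and of all genes tested -0.02, -0.03 and 0. In the single libraries of Soyo-san, members at least 1.5-fold above the vehicle mean were ABCA1 at 20 µg/mL (log2 0.74), none at 100 µg/mL and ABCG1 at 500 µg/mL (log2 0.61). None was 1.5-fold lower. Vehicle is of another titled batch than Soyo-san, so extract and batch cannot be told apart in these values. Of all genes 6.36%, 6.13% and 7.91% were past that fold at 20, 100 and 500 µg/mL, with 2.84%, 2.48% and 2.59% higher and 3.52%, 3.65% and 5.32% lower.

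At 100 µg/mL against vehicle, 3 members rose and 1 fell with Yijin-tang, where 18.4% of all genes were called, 9.71% higher and 8.68% lower. With Soshiho-tang 2 rose and 1 fell, where 18.3% were called, 9.8% higher and 8.52% lower. With Okbyeongpung-san none was called by edgeR (0.108% of all genes, 0.0444% higher and 0.0634% lower), none by DESeq2, and 2 had an unadjusted p under 0.05. At 20 µg/mL, 2 rose and none fell with Yijin-tang, where 16.8% of all genes were called, 9.17% higher and 7.68% lower. With Soshiho-tang 3 rose and 1 fell, where 16.8% were called, 9.36% higher and 7.48% lower, and with Okbyeongpung-san 1 rose (0.273% of all genes called, 0.14% higher and 0.133% lower).

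For 500 against 20 µg/mL, 4 members rose and none fell with Yijin-tang, where 1.92% of all genes were called, 0.679% higher and 1.24% lower. With Soshiho-tang 2 rose and 2 fell, where 26.6% were called, 13% higher and 13.6% lower. With Okbyeongpung-san none passed in edgeR (0.558% of all genes, 0.247% higher and 0.311% lower), but 5 had an unadjusted p under 0.05, DESeq2 called 1, and a fit of only the groups compared called 5. Between 100 and 20 µg/mL of one formula edgeR called no gene (0% for each formula), where 479, 508 and 369 genes had an unadjusted p under 0.05 with Soshiho-tang, Yijin-tang and Okbyeongpung-san. DESeq2 called 0, 0 and 3 genes, none of them a member, and 1 member had an unadjusted p under 0.05, with Okbyeongpung-san.

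Soshiho-tang was below Yijin-tang at 500 µg/mL in 4 of the 7 members, ABCA1, ABCG1, MYLIP and SCD, where 13.1% of all genes were called, 6.69% higher and 6.37% lower. The change across the dose range was higher with Yijin-tang than with Soshiho-tang for 2 members, ABCA1 and ABCG1, where 4.69% of all genes were called, 2.42% higher and 2.27% lower. For Okbyeongpung-san against Soshiho-tang (1.84% of all genes called, 1.01% higher and 0.828% lower) and against Yijin-tang (0.0552%, 0.0429% higher and 0.0123% lower) no member passed in edgeR, where 3 members each had an unadjusted p under 0.05 and DESeq2 called 1 each.

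For scale, 4 target genes of the aryl hydrocarbon receptor, a sensor of plant and other aromatic compounds, stood in another order of formulas. Against vehicle at 500 µg/mL all 4 rose with Soshiho-tang (median 2.27) and with Yijin-tang (median 0.93), and 3 rose with Okbyeongpung-san (median 0.76). Of all genes tested 19.3%, 11% and 2.19% were called higher in these comparisons. ABCG1 and MYLIP changed most with Yijin-tang and least with Soshiho-tang.

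The genes whose 13 group means of log2 CPM ran closest to ABCG1, of 11516 genes ranked, were MYLIP (Pearson r = 0.94) and LPCAT3 (r = 0.83), both members. Next were LGR5 (r = 0.81), a receptor of intestinal stem cells, EXO1 (r = 0.80), a DNA repair exonuclease, and VPS29 (r = 0.79), a retromer subunit. By Spearman's rho, which weighs the single high group less, these 5 values were 0.69, 0.83, 0.57, 0.73 and 0.76 in the same order. Their ranks by rho were 245.5, 15.5, 752, 133.5 and 67.5, so none was the closest gene by that measure. Without vehicle the r of MYLIP was 0.94 and that of LPCAT3 0.82. These are descriptions over group means that share libraries and their scaling, with 1 group, Yijin-tang at 500 µg/mL, far from the rest.

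ABCA1 ran apart from ABCG1, with r = 0.32 over the same 13 group means, and its r with MYLIP was 0.30, with LPCAT3 -0.19 and with NR1H3 -0.41. The genes closest to ABCA1 by Pearson r were GDA, guanine deaminase (r = 0.89), PCMTD2 (r = 0.88), the transcription factor TCF21 (r = 0.85), SYTL5 (r = 0.85) and RCBTB1 (r = 0.84). By Spearman's rho these 5 values were lower, at 0.71, 0.58, 0.71, 0.68 and 0.60, with ranks of 22, 214, 20, 48.5 and 153.5. TCF21 was scarce, at 2.28 CPM in vehicle and 1.82 CPM with Soshiho-tang at 500 µg/mL. LPCAT3 and NR1H3 had r = 0.88 with each other. The highest r of SCD with another member was 0.36, with ABCA1.

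**Figure D4:**
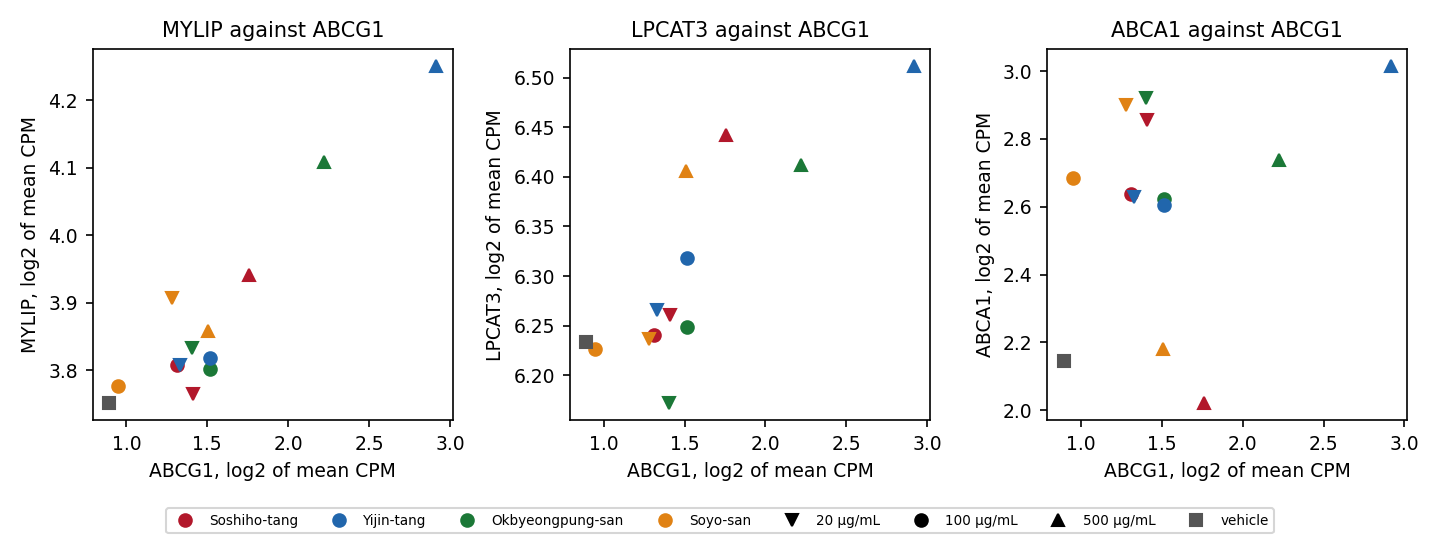
Group means of MYLIP, LPCAT3 and ABCA1 against those of ABCG1, as log2 of the mean CPM of each of the 13 groups. Colours mark formulas and vehicle, and shapes mark the dose. MYLIP and LPCAT3 are higher where ABCG1 is higher (r = 0.94 and 0.83 over group means of log2 CPM), while ABCA1 is scattered (r = 0.32), with vehicle and 500 µg/mL of Soshiho-tang and Soyo-san at the bottom.

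Of 14 other known LXR targets listed, 9 passed the filter, and the rest, ABCG5, ABCG8, APOE, LPL and PNPLA3, were at or near 0 in this line, with APOE at 0.0493 to 0.335 CPM and LPL at 0 in all libraries. Among the 9 at 500 µg/mL against vehicle, 1 rose and 2 fell with Yijin-tang, 1 rose and 2 fell with Soshiho-tang, and none was called with Okbyeongpung-san. The median changes were -0.05, -0.11 and 0.09, and of all genes -0.02, -0.03 and 0. Of all genes tested 21.4%, 39.2% and 4.38% were called with Yijin-tang, Soshiho-tang and Okbyeongpung-san, about evenly higher and lower. The same shares belong beside the counts against vehicle at 500 µg/mL of the lists below.

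SREBF1, which encodes the lipogenic factor SREBP1 and is a direct LXR target, rose with Yijin-tang at 500 µg/mL. It averaged 159 ± 7.97 CPM there and 122 ± 17.2 CPM in vehicle (SD, n = 3 each), a change of 0.39 ± 0.076 (adjusted p = 0.0013). With Soshiho-tang the change was -0.03 ± 0.077 and with Okbyeongpung-san 0.09 ± 0.1, and neither passed. Against 20 µg/mL of Yijin-tang it was 0.25 ± 0.076 (adjusted p = 0.13).

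MLXIPL, the glucose-sensing factor ChREBP, fell with Soshiho-tang (-1.27 ± 0.37, adjusted p = 0.0079) and Yijin-tang (-0.98 ± 0.35, adjusted p = 0.047) but at 0.225 ± 0.0781 and 0.272 ± 0.0943 CPM, against 0.564 ± 0.0525 CPM in vehicle, it was scarcely detected. The MLXIPL call for Soshiho-tang was lost without its replicate 1 (-1.03), and that for Yijin-tang without its replicate 2 (-0.85), its replicate 3 (-0.86) or any 1 vehicle library (-0.94 to -1.07), with no filter on low counts (adjusted p = 0.12) or in a fit of only the groups compared (adjusted p = 0.11). EEPD1 fell by 0.14 and 0.15 on the log2 scale with the 2 formulas (adjusted p = 0.043 and 0.047). Its call for Soshiho-tang was lost without vehicle replicate 1 (-0.12) or 3 (-0.13) or its own replicate 1 (-0.13) or 3 (-0.11), and that for Yijin-tang without vehicle replicate 1 (-0.13) or 3 (-0.14) or its own replicate 1 (-0.12) or 2 (-0.13). Both EEPD1 calls were also lost with DESeq2, with RLE factors, with no filter on low counts and in a fit of only the groups compared (adjusted p = 0.062 to 0.22).

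Among 9 partners and cofactors of LXR, RXRA, the main retinoid partner, did not pass in any of these comparisons (-0.02 to 0 against vehicle at 500 µg/mL with Soshiho-tang and Yijin-tang), and RXRG was at 0 in all libraries. Of the 8 tested at 500 µg/mL against vehicle, 2 rose with Yijin-tang, 1 rose and 3 fell with Soshiho-tang and none was called with Okbyeongpung-san. The coactivator NCOA3 rose by 0.23 ± 0.049 with Soshiho-tang (adjusted p = 0.00032) and 0.18 ± 0.048 with Yijin-tang (adjusted p = 0.0089), but its 500 against 20 µg/mL changes, 0 ± 0.049 and -0.09 ± 0.048, did not pass, and the call for Yijin-tang was lost without vehicle replicate 3 (0.15) and in a fit of only the groups compared (adjusted p = 0.092). With Soshiho-tang the coactivator NCOA1 fell by 0.28 (-0.28 ± 0.07, adjusted p = 0.0023) and RXRB by 0.23 (-0.23 ± 0.059, adjusted p = 0.0031).

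Genes that make, remove or store LXR's sterol ligands were few in these cells. Of 8 listed, 4 passed the filter, and CH25H and CYP7B1 were at 0 in all libraries. Of these, 1 rose and 1 fell at 500 µg/mL against vehicle with Soshiho-tang, and none was called with Yijin-tang or Okbyeongpung-san. SULT2B1, which sulphates cholesterol and oxysterols, was at 68.1 ± 3.63 CPM with Soshiho-tang and 54.2 ± 4.79 CPM in vehicle (SD, n = 3 each; log2 0.33 ± 0.06, adjusted p = 7.7e-05), and rose against 20 µg/mL too (0.43 ± 0.061, adjusted p = 3.8e-06). SOAT1, which esterifies cholesterol for storage, was at 2.25 ± 0.3 CPM with Soshiho-tang and 3.63 ± 0.15 CPM in vehicle (log2 -0.70 ± 0.14, adjusted p = 0.0002), and fell against 20 µg/mL by 0.76 (-0.76 ± 0.14, adjusted p = 0.00018). With Yijin-tang the changes against vehicle, -0.16 ± 0.061 and -0.07 ± 0.13, did not pass.

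Of 11 sterol carriers and efflux partners, 10 passed the filter, and APOA1, the acceptor that ABCA1 loads, was at 0 to 0.0996 CPM. At 500 µg/mL against vehicle, 3 rose and 3 fell with Soshiho-tang, 1 rose and 2 fell with Yijin-tang and 1 fell with Okbyeongpung-san. NPC1, which exports cholesterol from lysosomes, averaged 65.8 ± 1.66 CPM with Soshiho-tang and 43.4 ± 3.42 CPM in vehicle (SD, n = 3 each; log2 0.60 ± 0.057, adjusted p = 2.6e-09), with a change of 0.13 ± 0.057 for Yijin-tang (adjusted p = 0.11). Its lysosomal partner NPC2 fell with Soshiho-tang (-0.39 ± 0.064, adjusted p = 2.4e-05) and Yijin-tang (-0.25 ± 0.063, adjusted p = 0.0062, lost without vehicle replicate 3, -0.18, and in a fit of only the groups compared, adjusted p = 0.072). STARD4, a carrier of cholesterol through the cytosol, rose by 0.55 ± 0.058 and 0.31 ± 0.058 with the same formulas (adjusted p = 1.7e-08 and 0.00039). GRAMD1A, which carries cholesterol from the plasma membrane to the endoplasmic reticulum, was at 4.52 ± 0.247 CPM with Soshiho-tang, 6.26 ± 0.96 CPM with Yijin-tang and 8.80 ± 1.21 CPM in vehicle (log2 -0.97 ± 0.12 and -0.51 ± 0.11, adjusted p = 2.1e-07 and 0.0015). It was also the gene called with Okbyeongpung-san (-0.52 ± 0.14, adjusted p = 0.049), a call lost without either Okbyeongpung-san library (replicate 2, -0.55, and replicate 3, -0.49) or without vehicle replicate 1 (-0.43) or 3 (-0.50). That call was also lost with the titled batch as a term (-0.45, adjusted p = 0.17), with DESeq2 (adjusted p = 0.096) and in a fit of only the groups compared (adjusted p = 0.087).

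Many SREBP2 targets, the genes of cholesterol synthesis and uptake, fell from the lowest to the highest dose. For 500 against 20 µg/mL, 10 of the 11 fell and none rose with Yijin-tang (median -0.28, all genes 0), 8 fell and 1 rose with Soshiho-tang (median -0.16, all genes -0.01), and 4 fell and none rose with Okbyeongpung-san (median -0.29, all genes 0). Of all genes tested 1.24%, 13.6% and 0.311% were called lower there, in the same order of formulas. The counts moved with single libraries: 6 fell with Yijin-tang without its replicate 1 at 500 µg/mL, 5 fell with Soshiho-tang without its replicate 1 at 500 µg/mL, and 1 fell with Okbyeongpung-san without any 1 of its 4 libraries, while a fit of only the groups compared called 10 with Okbyeongpung-san. Against vehicle the picture was weaker, with 4 falling and none rising with Yijin-tang, 4 falling and 3 rising with Soshiho-tang and 4 falling and none rising with Okbyeongpung-san at 500 µg/mL, and at 20 µg/mL 6, 5 and 0 rose and none fell. Of all genes tested 9.17%, 9.36% and 0.14% were called higher at 20 µg/mL. The Yijin-tang count at 500 µg/mL was 2 without its replicate 2, and the Okbyeongpung-san count was 1 without either of its libraries and 7 without vehicle replicate 1.

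INSIG1, which holds SREBP in the endoplasmic reticulum, showed the pattern in all 3 formulas. At 500 and 20 µg/mL it averaged 113 ± 4.12 and 160 ± 2.31 CPM with Yijin-tang, 113 ± 4.6 and 152 ± 2.04 CPM with Soshiho-tang (SD, n = 3 each), and 85.1 ± 2.84 and 139 ± 2.37 CPM with Okbyeongpung-san (n = 2 each). It fell by 0.50, 0.43 and 0.70 on the log2 scale (-0.50 ± 0.048, -0.43 ± 0.048 and -0.70 ± 0.069, adjusted p = 3e-07, 9.7e-08 and 0.00046). LSS, lanosterol synthase, fell by 0.34, 0.45 and 0.55 in the same order (adjusted p = 0.001, 1.2e-06 and 0.0084), the last lost without any 1 of the 4 Okbyeongpung-san libraries (-0.54 to -0.57). SQLE, squalene epoxidase, fell with Yijin-tang (-0.28 ± 0.038, adjusted p = 6.7e-05) but the change with Soshiho-tang was -0.01 ± 0.038 (adjusted p = 0.87).

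**Figure D5:**
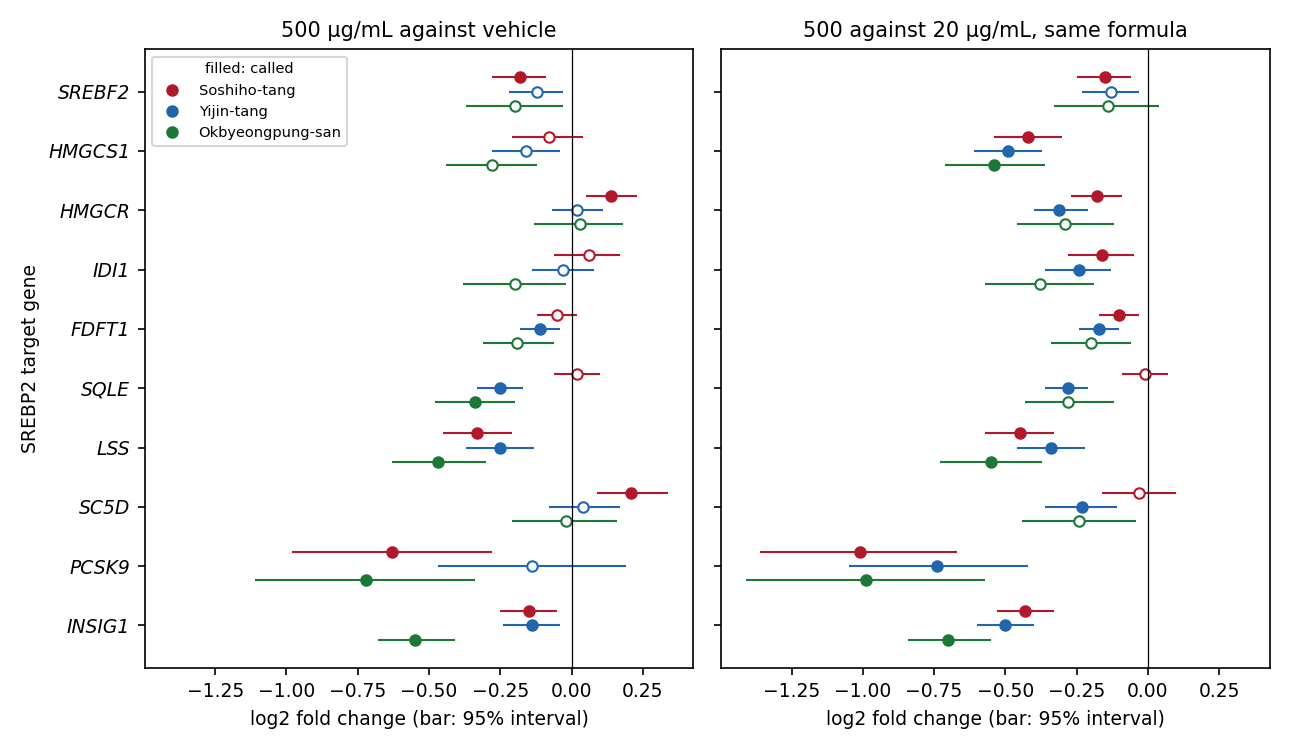
Log2 fold changes of 10 of the 11 SREBP2 targets at 500 µg/mL against vehicle (left) and against each formula's own 20 µg/mL (right). Points are estimates for Soshiho-tang, Yijin-tang and Okbyeongpung-san, bars are 95% intervals and filled points passed the test. Against 20 µg/mL nearly all points lie left of 0, with 9 called lower for Yijin-tang, and against vehicle they are spread around it.

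Of 8 fatty acid genes of SREBP1 tested, 2 rose at 500 µg/mL against vehicle with Yijin-tang, 2 with Soshiho-tang and 1 with Okbyeongpung-san, and none fell. ME1, the NADPH-producing malic enzyme, rose in all 3 (0.34 ± 0.052, 0.62 ± 0.052 and 0.46 ± 0.076, adjusted p = 5e-05, 3.1e-10 and 0.0062), the last lost without either Okbyeongpung-san library (replicate 2, 0.46, and replicate 3, 0.45). ACACA, the first enzyme of fatty acid synthesis, rose with Yijin-tang (0.19 ± 0.038, adjusted p = 0.00093), a call lost in a fit of only the groups compared (adjusted p = 0.073), and FASN did not pass with any formula.

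Of 6 other lysophospholipid acyltransferases at 500 µg/mL against vehicle, 1 rose and 3 fell with Soshiho-tang, 1 rose and 1 fell with Yijin-tang, and none was called with Okbyeongpung-san. LPCAT2 rose with Soshiho-tang (0.71 ± 0.051, adjusted p = 1.7e-11) and Yijin-tang (0.37 ± 0.051, adjusted p = 1.4e-05), and LPCAT1, which acts on saturated chains in lung surfactant, fell with both (-0.50 ± 0.046 and -0.22 ± 0.046, adjusted p = 2e-09 and 0.001). LPCAT4 fell with Soshiho-tang (-0.22 ± 0.062, adjusted p = 0.0058, lost without its replicate 2, -0.18), as did MBOAT7 (-0.16 ± 0.052, adjusted p = 0.013, lost without vehicle replicate 1, -0.06, or its replicate 3, -0.15). Both were also lost in a fit of only the groups compared (adjusted p = 0.051 and 0.14).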

How the data were processed

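RNA-seq of 30 HT29 libraries was analysed from a table of expected counts per gene that the authors deposited, not normalised between libraries. The tools RSEM 1.3.3, STAR 2.7.3a, Trim Galore 0.6.5 and FastQC 0.11.9 and build GRCh38 are named, per the submitters' processing notes; the annotation release and strand setting are not given in the sources used here. Between 9.52% and 11.52% of a library's values were not whole, and expected counts were rounded. The table's 30 unnamed, empty columns were not used. Symbols were found for 56558 of 60675 identifiers, and 57055 were in GENCODE release 29. Groups came from sample titles, which also name a batch D (all of Soyo-san, and Okbyeongpung-san replicate 3) and a batch E.

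In R 4.3.3, edgeR 4.0.16 (filterByExpr, TMM, robust quasi-likelihood F-test, Benjamini-Hochberg) was fitted to the 21 libraries of vehicle and of Soshiho-tang or Yijin-tang (15895 genes), to vehicle and Okbyeongpung-san (9 libraries, 15764 genes), and, for the remaining interactions, to these 27 libraries together (16308 genes). The SE of a log2 fold change comes from the F statistic. CPM use TMM-scaled totals. Soyo-san, with 1 library a dose, was not tested. Alternatives were DESeq2 1.42.0, RLE factors, no filter on low counts, a replicate block, the titled batch as a term (Okbyeongpung-san), a fit of only the groups compared, and leaving out each library. The test was checked on simulated data with the same spread in all groups, so the check does not cover a vehicle noisier than the extracts. The members and the 8 other gene lists were chosen with earlier results of these data known. Named were all members, up to 4 genes per list with the smallest adjusted p among those called at 500 µg/mL against vehicle, and the 5 genes with group means closest to ABCA1 and to ABCG1 (Pearson, mean of at least 2 CPM); genes named for being at 0, RXRA and FASN were added after their values were seen. Some genes of the lists are counted but not reported by name here.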

Additional observations from a re-analysis of the deposited data

Results flagged for a closer look

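The change from 20 to 500 µg/mL differed between Yijin-tang and Soshiho-tang for both exporters by the interaction test. Their differing dose patterns were known from these data beforehand, so the test describes them and is no separate support. For ABCG1 the difference was 1.24 on the log2 scale, with a change of 1.58 for Yijin-tang and 0.34 for Soshiho-tang. For ABCA1 it was 1.23, with a change of 0.39 for Yijin-tang and -0.84 for Soshiho-tang. The cause was not tested.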

How the results depend on the processing

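Of 133 member values, 41 were called. Of these, 21 stayed called under every alternative that gave an adjusted p, the largest being ABCG1 at 500 µg/mL of Yijin-tang (1.92 to 2.20). Of 1540 alternative values, 74 lost a call, 27 gained one and none turned its sign with a call; 42 values without a call turned sign. DESeq2 gave 126 values, since adjusted p-values it left undefined were not used. ABCG1 at 500 µg/mL of Okbyeongpung-san against vehicle is counted among the 21 but has no DESeq2 value.

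Fitting only the groups compared lost 12 calls and gained 8. It leaves fewer libraries and takes the spread from those groups alone. Of the all-gene counts below, those against vehicle fell and the others rose, and the cause was not tested. ABCG1 gave 0.51 (20 µg/mL of Soshiho-tang) and 0.61 (100 µg/mL of Yijin-tang) and ABCA1 0.47 (100 µg/mL of Yijin-tang), all no longer called, while ABCA1 at 500 against 20 µg/mL of Yijin-tang (0.39) and ABCG1 in that contrast of Okbyeongpung-san (0.83) became called. Members called against vehicle were 2, 1 and 1 at 500, 100 and 20 µg/mL of Soshiho-tang and 1 at 100 µg/mL of Yijin-tang, with 5 for 500 against 20 µg/mL of Okbyeongpung-san. It was 1 each for the differences of Okbyeongpung-san from Soshiho-tang and from Yijin-tang. Of all genes, 362 and 559 were called at 20 and 100 µg/mL of Soshiho-tang (2677 and 2911 in the reported fit), 498, 575 and 1042 at 20, 100 and 500 µg/mL of Yijin-tang (2678, 2924 and 3396), and 18, 3 and 216 at 20, 100 and 500 µg/mL of Okbyeongpung-san (43, 17 and 690). For 500 against 20 µg/mL the counts were 869 for Yijin-tang (305) and 938 for Okbyeongpung-san (88), for 100 against 20 µg/mL 1 for Soshiho-tang and 5 for Yijin-tang (0 each), and for the differences 1352 (Yijin-tang minus Soshiho-tang, 745), 645 (Okbyeongpung-san minus Soshiho-tang, 300) and 37 (Okbyeongpung-san minus Yijin-tang, 9).

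With no filter on low counts, ABCA1 passed at 500 against 20 µg/mL of Yijin-tang (0.40) and for Okbyeongpung-san minus Soshiho-tang (0.68), and ABCG1 at 500 against 20 µg/mL of Okbyeongpung-san (0.84). Members called were 2 in that last contrast and 1 for each difference with Okbyeongpung-san. All genes called were 1114, 430 and 1432 at 20, 100 and 500 µg/mL of Okbyeongpung-san, 226 and 24 for its 500 and 100 against 20 µg/mL, 4 for 100 against 20 µg/mL of Yijin-tang and 97 for Okbyeongpung-san minus Yijin-tang. With DESeq2, members called were 1 and 0 at 500 and 20 µg/mL of Okbyeongpung-san, 1 for its 500 against 20 µg/mL and 1 for each of its differences; all genes called were 523 and 141 at its 20 and 100 µg/mL, 3 for 100 against 20 µg/mL and 15 for its difference from Yijin-tang. With the titled batch as a term, ABCA1 at 20 µg/mL of Okbyeongpung-san was 0.80 and not called, no member (0) was called there, and all genes called were 5, 6 and 157 at 20, 100 and 500 µg/mL and 55 for 500 against 20 µg/mL.

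Replicate numbers did not pair the libraries: 0 of 111 same-numbered pairs had deviations correlated over 0.1 (-0.13 to 0.09, median 0.01). With Okbyeongpung-san, at 2 libraries a dose, the deviations mirror each other and the correlation repeats, so the 111 are not all separate checks. A replicate block ended the calls of MLXIPL at 500 µg/mL of Yijin-tang (-0.98, adjusted p = 0.054) and of GRAMD1A at 500 µg/mL of Okbyeongpung-san (-0.43, adjusted p = 0.086) against vehicle. It lost no member call and gained 3, among them ABCA1 for Okbyeongpung-san minus Soshiho-tang (0.67, with 1 member called), and gave 1 member for 500 against 20 µg/mL of Okbyeongpung-san; all genes called under the block were 468 and 90 at 20 and 100 µg/mL of Okbyeongpung-san and 155 for its 500 against 20 µg/mL.

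Leaving out 1 library gave these lowest and highest values. ABCA1 ranged from 0.74 to 0.83 and from 0.55 to 0.68 at 20 and 500 µg/mL of Okbyeongpung-san, 0.40 to 0.57 at 100 µg/mL of Soshiho-tang, 0.46 to 0.57 and 0.33 to 0.55 at 20 and 100 µg/mL of Yijin-tang, and 0.57 to 0.84 for Okbyeongpung-san minus Soshiho-tang. ABCG1 ranged from 0.40 to 0.69 and 0.31 to 0.59 at 20 and 100 µg/mL of Soshiho-tang and from 0.33 to 0.61 at 20 µg/mL of Yijin-tang. Members called ranged from 0 to 2 and 1 to 4 at 20 and 500 µg/mL of Okbyeongpung-san, 2 to 4 and 1 to 4 at 20 and 100 µg/mL of Soshiho-tang, 1 to 3 and 2 to 4 at 20 and 100 µg/mL of Yijin-tang, 2 to 4 for 500 against 20 µg/mL of Soshiho-tang and 0 to 1 for Okbyeongpung-san minus Soshiho-tang. All genes called ranged from 0 to 871, 3 to 323 and 55 to 1298 at 20, 100 and 500 µg/mL of Okbyeongpung-san, 12 to 21 and 0 to 21 for its 500 and 100 against 20 µg/mL, 1529 to 3508 at 20 µg/mL of Soshiho-tang, 1707 to 3571 at 20 µg/mL and 147 to 222 for 500 against 20 µg/mL of Yijin-tang, 175 to 273 for Okbyeongpung-san minus Soshiho-tang and 4 to 10 for Okbyeongpung-san minus Yijin-tang. Beyond fewer libraries, the cause was not tested. With 42 to 238 counts of ABCG1 and 80 to 261 of ABCA1 a library, depth limits both exporters.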
